A study of Mus musculus with 24 samples.

Results

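Trp53, which encodes the transcription factor p53, and 9 of its target genes were followed across 24 mouse mammary tumors. The mice were of the BALB/c strain and had received DMBA, a carcinogen that is activated in the body and damages DNA. The members were chosen by gene symbol: every probe of the array other than a control whose symbol was Trp53, Cdkn1a, Mdm2, Bax, Apaf1, Gadd45a, Bbc3, Pmaip1, Ccng1 or Trp53inp1. This gave 13 probes, on 22 spots, for 10 genes, out of 39429 probes on the array and 20930 genes that passed the signal filter. All 13 probes passed that filter. The labels sort the tumors by diet and by whether the tumor arose early or late. LFD and HFD are diets low and high in fat, the latter rich in saturated fat from animals. HFD-LFD mice were switched from HFD to LFD after puberty, and LFD-HFD mice were switched the other way. There were 5 late tumors on LFD, 6 late and 3 early on HFD, 4 late on LFD-HFD, and 3 late and 3 early on HFD-LFD. No early tumor came from LFD or LFD-HFD mice. The labels give DMBA for every tumor and do not say which tumors shared a mouse, so the p-values measure the spread between these tumors. Each tumor was hybridised beside a reference RNA pooled from 11 mouse cell lines, so each level is a log2 ratio of tumor to reference and is compared only within a probe.

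p53 is held at a low level by the ubiquitin ligase Mdm2 and is stabilised when DNA is damaged or an oncogene is active. It then binds DNA and raises the transcription of genes that stop the cell cycle, such as Cdkn1a, which encodes the kinase inhibitor p21, and Gadd45a, which also acts in DNA repair. Other targets carry out apoptosis, among them Bax, Bbc3 (PUMA) and Pmaip1 (NOXA) at the mitochondrion and Apaf1, the scaffold of the apoptosome. Mdm2 is itself a p53 target and closes a feedback loop, and Ccng1, which encodes cyclin G1, takes part in the same loop. Much of p53's activity is set by protein stability, which an RNA array does not measure. The array also does not show whether Trp53 was mutated in a tumor.

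p53 binds as a tetramer to a pair of decamers, and the promoters of the members were searched for this decamer by its consensus, which reads the same on both strands. RefSeq windows on GRCm38.p6, from 250 bases before to 50 bases after a transcription start, were listed for 8 members, and 6 of these held at least 1 decamer. Over all 32851 windows, 8.36% held it, and over the 27025 genes with a window, 9.55% did. Bbc3, with 3 windows, and Apaf1 had no match in these letters. Pmaip1 and Trp53inp1 were not in the table. The matches are descriptions of sequence, and no binding was measured. They are shown 5′ to 3′ on the gene's strand, with the decamer in capitals, because they show the letters found in these 6 promoters. The first base of the capitals lies 75 bases before the start for Trp53, 186 for Mdm2, 185 for Ccng1, 40 for Gadd45a and 201 for Bax. The upstream start of Cdkn1a had 2 decamers, 73 and 51 bases before it, and its second listed start had none.
Trp53, chr11:69580259-69580318, plus strand: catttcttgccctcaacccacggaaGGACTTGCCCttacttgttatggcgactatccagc
Mdm2, chr10:117710910-117710969, minus strand: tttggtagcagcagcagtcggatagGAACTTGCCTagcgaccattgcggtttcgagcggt
Ccng1, chr11:40755437-40755496, minus strand: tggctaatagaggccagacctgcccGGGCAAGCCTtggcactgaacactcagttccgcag
Cdkn1a, chr17:29090881-29090962, plus strand: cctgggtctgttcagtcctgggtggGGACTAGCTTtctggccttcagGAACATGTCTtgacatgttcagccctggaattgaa
Gadd45a, chr6:67037413-67037472, minus strand: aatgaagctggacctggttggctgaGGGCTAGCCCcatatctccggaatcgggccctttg
Bax, chr7:45467065-45467124, minus strand: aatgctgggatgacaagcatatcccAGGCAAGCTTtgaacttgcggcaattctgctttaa

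Levels are given as tumor over reference. The labels put the tumor in Cy5, whereas the study's methods name cyanine 5 for the reference. Probe by probe, Cy5 varied more from array to array (median SD 0.79 log2 units) than Cy3 (0.38), and Cy5 was taken as the tumor, as in the labels. A larger spread in 1 dye does not by itself settle the direction, on which the sign of every difference given here depends. The lowest correlation between any 2 arrays was 0.57. The arrays lie on 7 slides scanned in 3 sessions. Session 1 held the 3 early HFD tumors and 8 late tumors, session 2 the 3 early HFD-LFD tumors and 3 late tumors, and session 3 held 7 late tumors. On those 7 arrays of session 3 the Cy5 signal was lost over a block of rows, 16.4 to 20.7% of the spots, and these spots were set missing. This removed Gadd45a from 3 late tumors and Ccng1 from 4. Well above background in the tumor channel were 65.7 to 89.1% of probes per array. All 12 luminal and all 8 basal epithelial marker genes were well above background on at least 20 of the 24 tumors.

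**Figure D1:**
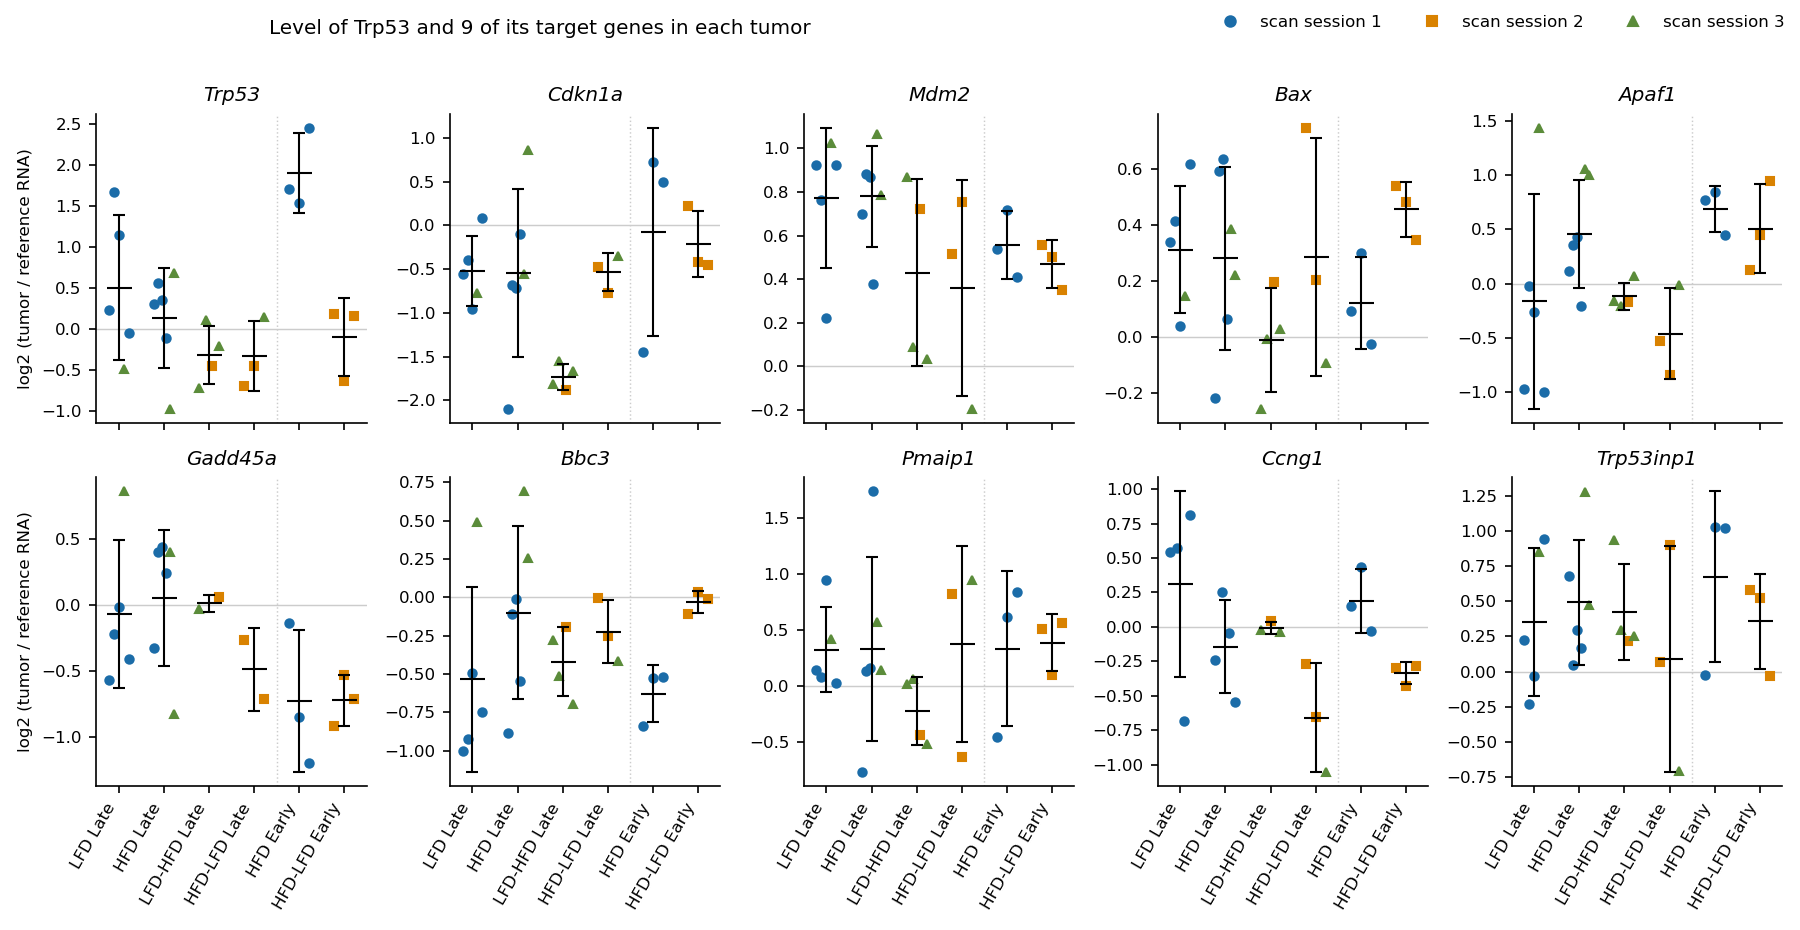
Level of each of the 10 genes in each tumor, as log2 of tumor over reference RNA (y axis), by diet and onset group (x axis, late groups left of the dotted line). Points are tumors, coloured and shaped by scan session, and bars are the mean ± SD of a group. Trp53 was at 1.54 to 2.45 in the 3 early HFD tumors, above every tumor of the other groups but 1, an LFD tumor at 1.67, and Cdkn1a was at -1.89 to -1.55 in the 4 LFD-HFD tumors.

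Trp53 was highest in early tumors of mice kept on HFD. Its probe (A_55_P1968068, mm9 chr11:69404204-69404263) lies in the coding part of the transcript near its 3′ end and is printed here because every Trp53 value rests on it.
Trp53 probe: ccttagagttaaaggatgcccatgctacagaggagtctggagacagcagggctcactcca
The level was 1.70, 1.54 and 2.45 in the early HFD tumors MSU_163, MSU_768 and MSU_97. In the 6 late HFD tumors it ran from -0.97 through a median of 0.33 to 0.69, so no late HFD tumor reached an early one. The early HFD-LFD tumors were at 0.18, -0.64 and 0.16, and the late HFD-LFD tumors at -0.69, -0.45 and 0.14. These overlap each other and lie below every early HFD tumor. The late LFD tumors were spread widely, at 0.23, 1.67, 1.14, -0.49 and -0.04, and 1 of them, MSU_122a, stood above the lowest early HFD tumor. The 4 LFD-HFD tumors were at -0.72, 0.10, -0.45 and -0.21.

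By group means, Trp53 ran from 1.90 ± 0.49 (SD, n = 3) in early HFD tumors to 0.50 ± 0.88 (SD, n = 5) in LFD, 0.14 ± 0.61 (SD, n = 6) in late HFD, -0.10 ± 0.47 (SD, n = 3) in early HFD-LFD, -0.32 ± 0.35 (SD, n = 4) in LFD-HFD and -0.33 ± 0.43 (SD, n = 3) in late HFD-LFD tumors. Only the step from the first group to the second exceeded the larger SD of its neighbours.

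Within HFD, Trp53 was 1.76 log2 units higher in early than in late tumors (SE 0.41, 95% interval 0.91 to 2.61, adjusted p = 0.0106 by limma), a 3.39-fold difference. It was the only member of 10 called in this comparison, in which 11.7% of all genes were called. Trp53 and Gadd45a had an unadjusted p under 0.05, as did 28.7% of genes. Its groups did not overlap, which held with the early tumors higher for 8.79% of genes. The call was lost with the slide as a random block (1.72, adjusted p = 0.0686) and without MSU_97 (1.48, adjusted p = 0.0662). It stood under 17 of 18 alternatives of the processing and in 23 of 24 fits that left out an array.

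Within HFD-LFD the same difference was 0.23 (SE 0.47, 95% interval -0.74 to 1.21, adjusted p = 0.854). The difference between the diets in the change was 1.53 (SE 0.62, 95% interval 0.23 to 2.82) and was not called (adjusted p = 0.617), in a test that called 2 genes of 20729, or 0.00965%. No other member had an unadjusted p under 0.05 there, against 7.85% of genes. Across both diets and all late tumors, Trp53 was at a median of 0.86 in early and 0.03 in late tumors, and the groups overlapped. The difference of 0.84 (SE 0.37) missed the threshold (adjusted p = 0.113).

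Scan session moved with this result. In session 1 the 8 late tumors had a mean Trp53 level of 0.51 ± 0.61 (SD), against -0.53 ± 0.14 for the 3 late tumors of session 2 and -0.21 ± 0.57 for the 7 of session 3. All early HFD tumors were scanned in session 1 and all early HFD-LFD tumors in session 2. Within session 1 alone, the early HFD tumors stood 1.62 above the 4 late HFD tumors there (SE 0.40, adjusted p = 0.0395). With session as a fixed block, the difference within HFD was 1.52 (SE 0.40, adjusted p = 0.0183), and early against late over all diets became 0.996 (SE 0.28, adjusted p = 0.0139). Early tumors were the higher group in both sessions that held early and late tumors, at 1.90 against 0.51 and at -0.10 against -0.53. On slides 6 and 7 of session 3, the rows that held the Trp53 spot stood -0.27 to -0.14 and 0.25 to 0.26 log2 units from the array median. Of the late HFD tumors, 2 were on slide 6, and without the arrays of both slides the difference within HFD was 1.62 (SE 0.38, adjusted p = 0.0147). Slide and group also coincide: in session 1 the 3 early HFD tumors filled slide 2, the 4 late HFD tumors slide 3 and the 4 LFD tumors slide 1. The contrasts of early HFD tumors within session 1 cannot be told apart from contrasts between slides. The contrast between early HFD and early HFD-LFD tumors cannot be told apart from that between sessions 1 and 2.

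**Figure D2:**
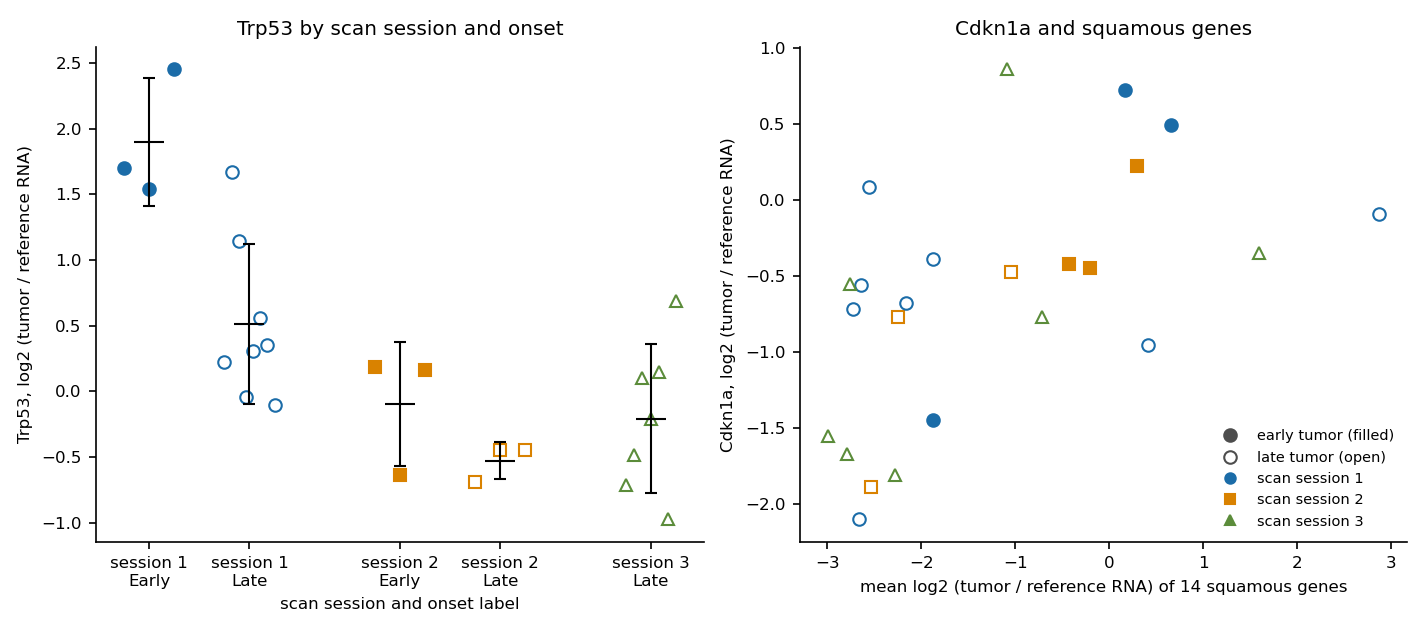
Left, Trp53 level (log2 of tumor over reference RNA) by scan session and onset label, with points for tumors and bars for the mean ± SD. Right, Cdkn1a level against the mean log2 ratio of 14 squamous differentiation genes in the same 24 tumors, filled for early and open for late tumors and coloured by session. Late tumors of session 1 sit higher for Trp53 (mean 0.51) than late tumors of sessions 2 and 3 (-0.53 and -0.21), and Cdkn1a tends to be higher where the squamous genes are higher.

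The negative regulator Mdm2 did not follow Trp53. Its level (probe A_55_P1975475, mm9 chr10:117126010-117126069) was 0.54, 0.72 and 0.41 in early HFD tumors and ran from 0.38 through a median of 0.83 to 1.06 in late HFD tumors. The groups overlapped, and the early HFD values lay toward the lower side of the late ones. The difference within HFD was -0.22 (95% interval -0.68 to 0.23, adjusted p = 0.533) and became 0.15 with arrays centred on the median. Over all tumors it was -0.12 (95% interval -0.44 to 0.20, adjusted p = 0.632). Within HFD the interval of Mdm2 lay below that of Trp53, 0.91 to 2.61. Over all tumors the intervals overlapped, that of Trp53 being 0.09 to 1.59. Mdm2 was lowest, at -0.20, 0.03 and 0.09, in the 3 tumors of slide 7, where the rows that held its spot were 0.31 to 0.36 log2 units below the array's median. On slide 6, which held 2 late HFD tumors and 1 LFD tumor, those rows were 0.49 to 0.63 log2 units above it. In session 1, without these slides, Mdm2 was at 0.56 ± 0.15 (SD) in the 3 early and 0.71 ± 0.27 in the 8 late tumors.

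Ccng1 (probe A_52_P612803, mm9 chr11:40562427-40562486) was at 0.15, 0.44 and -0.03 in early HFD tumors. In the 4 late HFD tumors with a value it was at -0.24, 0.26, -0.05 and -0.55. On HFD-LFD the early tumors stood at -0.30, -0.43 and -0.29, below every early HFD tumor, and the late ones at -0.27, -0.65 and -1.05, which overlap the late HFD tumors. The early minus late difference was 0.33 within HFD (adjusted p = 0.475), 0.32 within HFD-LFD (adjusted p = 0.668) and 0.02 overall (adjusted p = 0.963). The 4 arrays on which its rows were dimmed are left out of these values.

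Cdkn1a, whose p21 product is the best-known effector of p53 arrest, varied more between tumors than between onset groups. Its main probe (A_51_P363947, mm9 chr17:29237377-29237436) was printed on 10 spots per array, and the SD between spots was 0.03 to 0.27 log2 units per tumor, with a median of 0.07, against an SD of 0.81 between tumors. The early HFD tumors were at -1.45, 0.72 and 0.49, MSU_163 being the low one. The late HFD tumors ran from -2.10 through a median of -0.62 to 0.86. The early HFD-LFD tumors were at 0.23, -0.42 and -0.45, and the late ones at -0.47, -0.77 and -0.35. The difference between early and late tumors was 0.65 overall (SE 0.35, 95% interval -0.06 to 1.37, adjusted p = 0.191) and 0.47 within HFD (SE 0.46, adjusted p = 0.530). The value within HFD turned on single tumors: it was 1.16 without MSU_163 (adjusted p = 0.127), 0.0725 without MSU_768 (adjusted p = 0.953), 0.186 without MSU_97 (adjusted p = 0.870), 0.161 without MSU_62a (adjusted p = 0.825) and 0.752 without MSU_96 (adjusted p = 0.224). With array weights it was called, at 1.06 (adjusted p = 0.00872). The groups overlapped in every case.

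By diet, the main Cdkn1a probe was lowest in the LFD-HFD group, without a call. The 4 LFD-HFD tumors were at -1.81, -1.55, -1.89 and -1.67, with a mean of -1.73 ± 0.15 (SD, n = 4). Of them 1 was scanned in session 2 and 3 in session 3, and the part of session in this level was not tested. The 5 LFD tumors were at -0.56, -0.39, -0.96, -0.77 and 0.09. Of the 20 other tumors 19 lay above the LFD-HFD range, and MSU_62a, a late HFD tumor, lay below it. This separation of single tumors held for the main probe only. By the other probes, described next, the LFD-HFD tumors were at -0.44 to -0.12 and at 0.40 to 1.01, and tumors of other groups lay within both ranges. The LFD-HFD mean was the lowest of the groups by these probes too, at -0.27 ± 0.15 and 0.77 ± 0.28 (SD, n = 4). The next means were -0.08 in LFD and 0.98 in late HFD-LFD tumors. By the main probe, early HFD-LFD tumors exceeded LFD-HFD tumors by 1.52 (SE 0.50, 95% interval 0.48 to 2.55), which missed the threshold (adjusted p = 0.0705). Late HFD-LFD tumors exceeded them by 1.20 (SE 0.50, adjusted p = 0.682). The former difference was called under 4 of 18 processing alternatives, among them the mean of all 3 Cdkn1a probes (1.0, adjusted p = 0.0462). Both comparisons share the 4 LFD-HFD arrays.

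The 3 Cdkn1a probes agreed in direction but not in the call. A probe nearer the 5′ end of the transcript (A_55_P1976204, mm9 chr17:29235299-29235358), was 0.53 higher in early tumors (SE 0.17, adjusted p = 0.0377 over 27260 probes). The last, nearest the 5′ end (A_55_P1986282, mm9 chr17:29227986-29228045), was 0.45 higher (SE 0.20, adjusted p = 0.124). In the reference channel these probes were well above background on 20 and 15 of 24 arrays, and the main probe was so on all 24. Over 24 tumors the former correlated with the main probe at r = 0.78 (rho = 0.73), and the latter at r = 0.46 (rho = 0.45).

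Markers of tumor differentiation moved with Cdkn1a and with other members. Over the 24 tumors Cdkn1a correlated with the mean of 14 squamous differentiation genes at r = 0.54 (rho = 0.58) and with the mean of 11 luminal genes at r = -0.59 (rho = -0.53). Pmaip1 correlated more strongly with both, at r = 0.81 (rho = 0.69) and r = -0.63 (rho = -0.60). Ccng1 correlated with the squamous mean at r = -0.54 (rho = -0.47) over 20 tumors, and Apaf1 and Bbc3 with the mean of 8 basal genes at r = -0.60 (rho = -0.54) and r = -0.61 (rho = -0.61). The points share arrays and normalization. The squamous mean lay between -3.00 and -2.28 in the 4 LFD-HFD tumors, between -0.43 and 0.29 in the early HFD-LFD tumors and between -2.75 and 2.87 in late HFD tumors. The part of differentiation in the differences of these members was not tested. In bulk tumor, fewer cells of a type and less RNA per cell cannot be told apart.

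Gadd45a, a stress gene of growth arrest and DNA repair, was the only member called between early and late tumors by the probe that stood for its gene, in a comparison that called 15.9% of all genes. Of the 3 further probes of members, not chosen to stand for a gene, that of Cdkn1a named above was also called. Its level (probe A_51_P296608, mm9 chr6:66985376-66985435) was -0.14, -0.85 and -1.19 in early HFD tumors and -0.92, -0.53 and -0.71 in early HFD-LFD tumors. The 15 late tumors with a value ran from -0.82 through a median of -0.03 to 0.86. In no member were the early and late tumors fully apart, as they were, with early tumors higher or lower, for 0.373% and 0.569% of genes. The early tumors occupied the lower part of the range and overlapped the late ones. Gadd45a was 0.66 lower in early tumors (SE 0.21, 95% interval -1.09 to -0.23, adjusted p = 0.0361), or 0.633 of the late level. The direction was that opposite to Trp53.

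This call was fragile. It stood under 9 of 20 processing alternatives. Among others, it was lost with slide as a random block (-0.66, adjusted p = 0.122) and session as a fixed block (-0.57, adjusted p = 0.0773). It was also lost with 6 group means (-0.60, adjusted p = 0.0608), the log ratio of the scanner software (-0.61, adjusted p = 0.0658) and row bands centred (-0.55, adjusted p = 0.0676). With the dimmed rows kept it was -0.39 (adjusted p = 0.458), the 3 values that are otherwise missing being then among the late tumors. Leaving out 1 array lost the call in 5 of 24 fits, those without MSU_51, MSU_62b, MSU_67, MSU_768 or MSU_97, with adjusted p from 0.0509 to 0.102. The difference had the same sign in each of these settings. Within sessions it was -0.67 in session 1 (adjusted p = 0.139) and -0.42 in session 2 (adjusted p = 0.258). Within HFD it was -0.78 (SE 0.32, adjusted p = 0.114), and within HFD-LFD, where late tumors had 2 values, -0.23 (SE 0.41, adjusted p = 0.831). On slide 6, whose 4 arrays were all of late tumors, the rows that held the Gadd45a spot stood 0.41 to 0.59 log2 units above the array median.

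**Figure D3:**
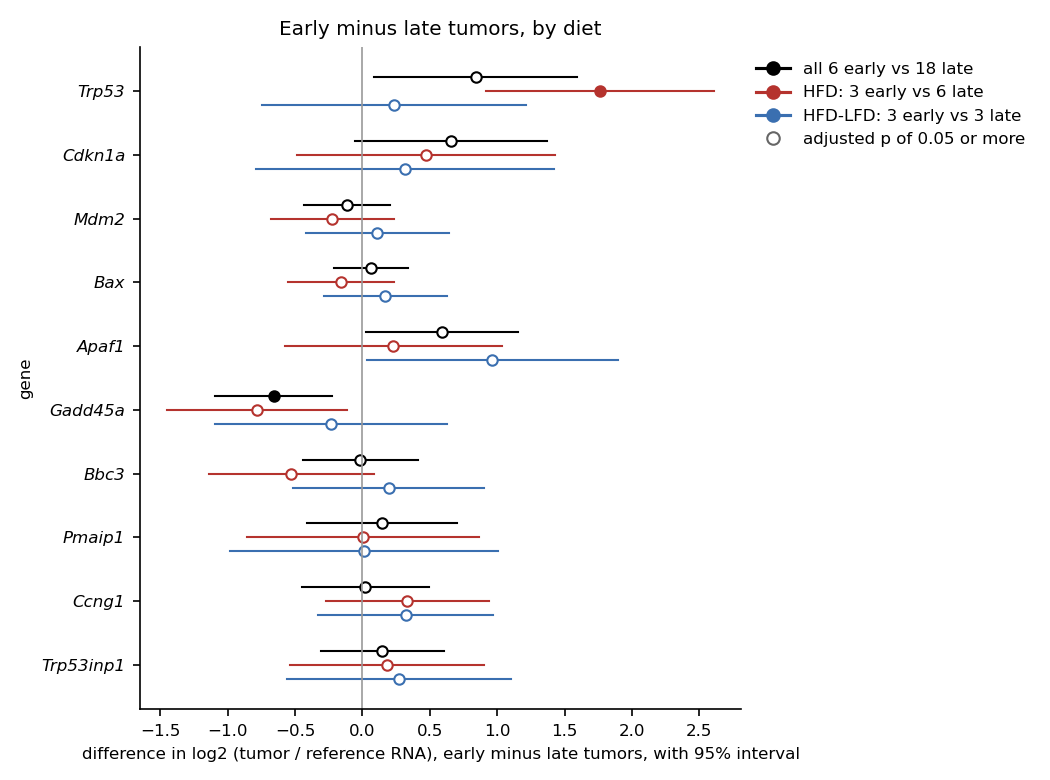
Early minus late difference in log2 of tumor over reference RNA (x axis) for each of the 10 genes (y axis), over all tumors, within HFD and within HFD-LFD, with 95% intervals from limma. Late tumors number 15 for Gadd45a and 14 for Ccng1 over all tumors, since some values are missing. Filled points have an adjusted p under 0.05: Trp53 within HFD (1.76) and Gadd45a over all tumors (-0.66).

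Apaf1 had the largest early minus late difference of the 4 effectors of apoptosis over all tumors, without passing the test. Its level (probe A_51_P417701, mm9 chr10:90452580-90452639) was 0.77, 0.84 and 0.45 in early HFD tumors and 0.13, 0.45 and 0.94 in early HFD-LFD tumors. The late HFD-LFD tumors were at -0.52, -0.84 and -0.01, all below the early ones as for 15.8% of genes, and the late HFD tumors ran from -0.21 through a median of 0.39 to 1.06. The 5 LFD tumors were the most spread, at -0.97, -0.03, -0.26, 1.43 and -0.995. Early tumors were 0.59 higher overall (SE 0.27, 95% interval 0.03 to 1.16, adjusted p = 0.138), 0.96 within HFD-LFD (SE 0.45, adjusted p = 0.328) and 0.23 within HFD (SE 0.39, adjusted p = 0.736). In HFD-LFD limma called no member of 10, against 0.718% of all genes, and Apaf1 was the only member with an unadjusted p under 0.05, against 14.5% of genes.

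Apaf1 differed between sessions. Its late tumors had a mean of -0.19 in session 1, -0.51 in session 2 and 0.45 in session 3. On slides 6 and 7 of session 3, the rows that held the Apaf1 spot stood 0.12 to 0.22 and 0.25 to 0.34 log2 units above the array median. With session as a fixed block the difference between early and late tumors was 0.94 (SE 0.26, adjusted p = 0.0138), and without the 7 arrays of session 3 it was 0.88 (SE 0.22, adjusted p = 0.0108). The difference was called under 5 of 20 processing alternatives and in none of the 24 fits that left out an array.

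Bax, the pore-forming protein of the mitochondrial outer membrane, hardly moved. It was at 0.09, 0.30 and -0.02 in early HFD tumors (probe A_55_P2137406, mm9 chr7:52717122-52717181) and at 0.54, 0.48 and 0.34 in early HFD-LFD tumors. Late tumors ran from -0.25 through a median of 0.20 to 0.74. The difference was 0.06 overall (95% interval -0.21 to 0.34, adjusted p = 0.775). Early HFD-LFD tumors exceeded all 4 LFD-HFD tumors, by 0.46 on average (adjusted p = 0.175).

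Bbc3 (probe A_51_P248122, mm9 chr7:16903403-16903462) was at -0.84, -0.53 and -0.52 in early HFD tumors and ran from -0.88 through a median of -0.06 to 0.69 in late ones. In early HFD-LFD tumors it was at -0.11, 0.03 and -0.01. Its early minus late difference was -0.53 within HFD (SE 0.29, adjusted p = 0.243), 0.19 within HFD-LFD (SE 0.34, adjusted p = 0.83) and -0.02 overall (95% interval -0.44 to 0.41, adjusted p = 0.968). Of the members, Bbc3 had the lowest correlation with Trp53 over the 24 tumors, at r = -0.49 (rho = -0.46). Session moved with these values. In session 1, Bbc3 had a mean of -0.63 in the 3 early and -0.59 in the 8 late tumors. Late means were -0.15 in session 2 and -0.07 in session 3. On slides 6 and 7 of session 3, the rows that held the Bbc3 spot stood 0.37 to 0.49 and 0.29 to 0.35 log2 units above the array median.

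Pmaip1 (probe A_51_P477121, mm9 chr18:66625088-66625147) was spread within every diet. It was at -0.46, 0.62 and 0.84 in early HFD tumors and ran from -0.77 through a median of 0.15 to 1.74 in late HFD tumors. The early tumor that was low for Pmaip1, MSU_163, was also the low one for Cdkn1a, and MSU_62a was the lowest late HFD tumor for both. The early minus late difference was 0.15 overall (95% interval -0.41 to 0.70, adjusted p = 0.736), and 0.01 both within HFD and within HFD-LFD.

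Trp53inp1, a stress protein that promotes p53 activity and autophagy, was at -0.02, 1.03 and 1.02 in early HFD tumors by its main probe (A_51_P175580, mm9 chr4:11101174-11101233). Late HFD tumors ran from 0.05 through a median of 0.39 to 1.28. The difference was 0.15 overall (95% interval -0.31 to 0.60, adjusted p = 0.678). Its second probe (A_55_P1973906, mm9 chr4:11092530-11092589) gave -0.08 (SE 0.18, adjusted p = 0.787), and the probes correlated at r = 0.15 over 21 tumors.

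Over the 10 members, 7 had an early minus late difference above 0, with a median of 0.10 against -0.05 for all genes. An unadjusted p under 0.05 was found for 3 of the 10, against 32.1% of all genes tested, and an adjusted one for 1. Within HFD the median was 0.10 against -0.09, and within HFD-LFD 0.21 against -0.06. The share of members called was thus near or under the share of all genes.

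The comparisons of HFD with LFD tumors gave no call for any member. Of the 9 HFD tumors 3 were early and 6 late, and the 5 LFD tumors were all late, so onset was not held. Between all of them, limma called none of 20923 genes, 0%, and 4.57% had an unadjusted p under 0.05, none of them a member. The largest member difference was that of Apaf1, 0.70 (SE 0.35, adjusted p = 0.964). Between late HFD and LFD tumors none was called either, with 8.78% of genes and no member at an unadjusted p under 0.05. Early HFD tumors had 1.40 more Trp53 than LFD tumors (SE 0.42, adjusted p = 0.0608), in a comparison in which limma called 4.03% of genes and no member. Unadjusted, Trp53 and Apaf1 were under 0.05, as were 23.6% of genes. The Trp53 difference was called without the LFD tumors MSU_122a (1.69, adjusted p = 0.0246) or MSU_137 (1.56, adjusted p = 0.0277), the highest for Trp53 in their group, and without the late HFD tumor MSU_93 (1.40, adjusted p = 0.0450). These comparisons share the LFD arrays.

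Between early HFD-LFD and LFD-HFD tumors limma called 6.27% of genes and no member, and Cdkn1a and Bax had an unadjusted p under 0.05, as did 23.0% of genes. In this comparison 5 members were higher in every early tumor, Cdkn1a, Bax, Apaf1, Bbc3 and Pmaip1, against 18.3% of all genes. Gadd45a and Ccng1 were lower in every early tumor, against 24.8%, but only 2 and 3 of the 4 LFD-HFD tumors had a value for them. All 3 early tumors were scanned in session 2, with 1 LFD-HFD tumor, and the other 3 LFD-HFD tumors in session 3. The contrast thus largely cannot be told apart from one between sessions. Late HFD-LFD against LFD-HFD tumors called none of 20782 genes, 0%, with 2 members at an unadjusted p under 0.05, Cdkn1a (1.20) and Ccng1 (-0.65, adjusted p = 0.698), against 7.14% of genes. Over the 4 late diet groups, limma's F test called 1.63% of genes and no member, with 2 members at an unadjusted p under 0.05 against 19.7% of genes. Ccng1 (adjusted p = 0.204) and Cdkn1a (adjusted p = 0.217) had the smallest p among members.

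The members did not rise and fall together across tumors. Of 45 pairs, 4 had r above 0.5 and none below -0.5, with a median of 0.13. The closest pair was Mdm2 and Ccng1, at r = 0.64 (rho = 0.61) over 20 tumors, followed by Cdkn1a and Pmaip1 at r = 0.57 (rho = 0.58), Mdm2 and Trp53inp1 at r = 0.57 (rho = 0.45) and Apaf1 and Bbc3 at r = 0.56 (rho = 0.49), each over 24. Trp53 correlated with its 9 targets at r from -0.49 to 0.34, 4 of them above 0. All pairs share arrays, reference and normalization.

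Over all genes, those most like Trp53 were Ubap2l (r = 0.94, rho = 0.91, over 23 tumors), Ywhaz (r = 0.92, rho = 0.77, over 20), Pfn1 (r = 0.92, rho = 0.87, over 23), Cables2 (r = 0.92, rho = 0.90, over 23) and 2700081O15Rik (r = 0.92, rho = 0.90, over 20). Ywhaz encodes a 14-3-3 protein and Pfn1 the actin-binding protein profilin. Within session 1 these were between 0.88 and 0.96. In the 6 tumors of session 2 they were between 0.08 and 0.77. In session 3, Ywhaz was at -0.95 and 2700081O15Rik at 0.32 over 3 tumors each, and the other 3 genes were between 0.87 and 0.92 over 6 or 7. None of the 5 was called between early and late tumors. Most like Cdkn1a were Kremen1 (r = 0.85, rho = 0.87, over 20), Dsc2 (r = 0.85, rho = 0.86, over 23), 2300002M23Rik (r = 0.81, rho = 0.81, over 23), S100a14 (r = 0.81, rho = 0.84, over 23) and Sh3bp1 (r = 0.80, rho = 0.84, over 20). Dsc2 encodes a desmosomal cadherin of epithelia. Kremen1, a co-receptor in Wnt signalling, was 0.57 higher in early tumors (adjusted p = 0.0380).

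Of 30 further p53 targets, 28 were tested and 3 were called between early and late tumors, a smaller share than the 15.9% of all genes called. Fas, the death receptor, was 0.82 lower in early tumors (SE 0.23, adjusted p = 0.0203), at -0.81 ± 0.43 (SD, n = 6) against 0.01 ± 0.54 in late ones. Btg2, an antiproliferative gene, was 0.58 lower (SE 0.18, adjusted p = 0.0312), and Ptpn14, a phosphatase of the Hippo pathway, was 0.53 higher (SE 0.17, adjusted p = 0.0356). The median over the 28 was 0.03, and 14 of them lay above 0. Within HFD, Fas (-1.12, SE 0.32, adjusted p = 0.0270) fell, and Ptpn14 (0.73, SE 0.21, adjusted p = 0.0352) and the polymerase Polk (1.20, SE 0.23, adjusted p = 0.00558) rose. None was called within HFD-LFD.

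Among 8 paralogs of the members, Trp73, the p53 relative that activates many of the same genes, was 1.47 higher in early tumors (SE 0.48, adjusted p = 0.0383). It was at 1.77 ± 0.53 (SD, n = 6) in early and 0.30 ± 1.18 in late tumors. Trp53inp2, which acts in autophagy, was 1.01 lower (SE 0.26, adjusted p = 0.0130). These 2 of 8 stand beside 15.9% of all genes. The other 6 were not called. Within HFD, 1 of the 8 was called lower and none higher.

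Of 22 regulators of p53, 3 were called, again under the 15.9% of all genes. Atm, the kinase that activates p53 after double-strand breaks, was 0.41 higher in early tumors (SE 0.13, adjusted p = 0.0331). Rpl5, a ribosomal protein that can bind and restrain Mdm2, was 0.37 higher (SE 0.12, adjusted p = 0.0366). Daxx, a histone chaperone that binds p53 and Mdm2, was 0.42 lower (SE 0.11, adjusted p = 0.0130). Of 19 tested genes of mitochondrial apoptosis, 1 was called, also under 15.9%, the BH3-only gene Bid, 0.60 higher in early tumors (SE 0.17, adjusted p = 0.0195). The median of that list was -0.18.

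Cell cycle genes that p21 represses through the DREAM complex were the list with the most calls. All 19 that were tested lay above 0, with a median difference of 0.74 against -0.05 for all genes. Of them, 9 were called higher in early tumors and none lower, where 15.9% of all genes were called in either direction. Top2a, a topoisomerase of dividing cells, was at 0.41 ± 0.60 (SD, n = 6) in early and -0.77 ± 0.47 in late tumors, 1.19 higher (SE 0.24, adjusted p = 0.00335). Ccna2, cyclin A2, was 1.19 higher (SE 0.25, adjusted p = 0.00479), Kif23, a kinesin of cytokinesis, 1.12 (SE 0.27, adjusted p = 0.00865), and Cenpa, the centromeric histone, 1.02 (SE 0.22, adjusted p = 0.00428). Within HFD, Ccna2 (1.80), Top2a (1.77), Kif23 (1.33) and Cenpa (1.25) were called, 4 of 19 where 11.7% of all genes were called, with 18 of the 19 above 0. The p21 gene itself, Cdkn1a, was not called there. Within HFD-LFD, 18 of the 19 lay above 0, with a median of 0.42, and none was called.

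Cell type markers moved with onset too. Of 11 tested luminal markers, 5 were called lower in early tumors, against 15.9% of all genes called in either direction, with a median difference of -1.72, and their mean level ranged from -0.05 to 2.33 in early and from -0.995 to 3.52 in late tumors. Of 14 squamous genes, 13 lay above 0 and none was called, with a median of 1.23. Their part in the differences of the members was not tested.

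**Figure D4:**
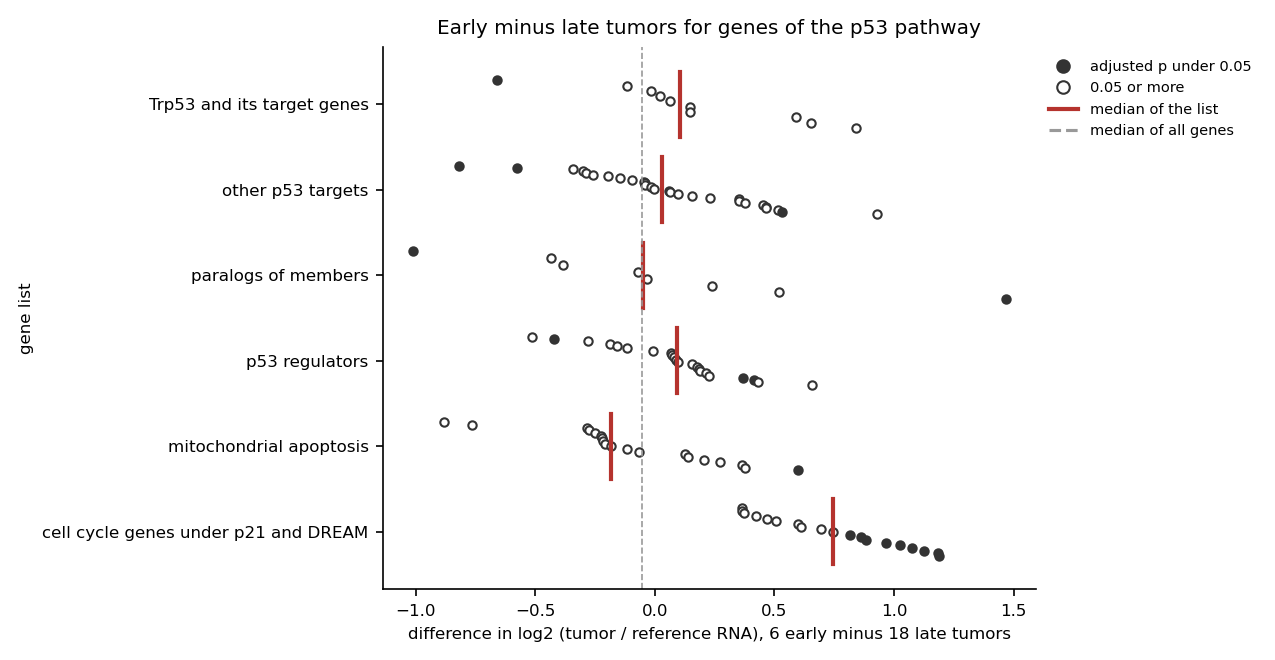
Early minus late difference in log2 of tumor over reference RNA (x axis) for each tested gene of the member set and of 5 lists of the p53 pathway (y axis), over 6 early and 18 late tumors. Filled points have an adjusted p under 0.05, red bars are list medians and the dashed line is the median of all genes (-0.05). Cell cycle genes under p21 and DREAM all lie above 0, with 9 of 19 called, and the other lists straddle 0.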

How the data were processed

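Per the labels, each of 24 tumors was hybridised in Cy5 with reference RNA in Cy3, on an Agilent array with probe positions on mm9. The deposited intensity values are the mean signal, local background and background-subtracted signal of each spot in each dye, from Feature Extraction 11.0.1.1 per the file headers (8.5.1.1 per the labels). The deposited log10 ratio of the same software was an alternative. The authors' own normalization, filter and imputation are not in these files.

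In R 4.3.3 with limma 3.58.1, outlier spots and bands of 10 rows whose median log2 ratio fell over 0.5 below the array's median were set missing and not imputed. Background was corrected by normexp (offset 50), ratios by loess within arrays, and spots of a probe were averaged. A probe was tested if both dyes exceeded a signal of 10 on 80% or more of the arrays, which 27267 of 39429 did. RefSeq names came from the accession for 27234 probes, from the symbol for 3576 and from an outdated symbol for 565. The probe of highest mean intensity stood for a gene.

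limma was fitted over all genes with Benjamini-Hochberg adjustment and a threshold of 0.05: early against late over 24 arrays, HFD against LFD over 14, and contrasts of 6 group means over 24. The code was tested on simulated data. All members were named in every comparison. Of each pathway list, at most 4 called genes with the smallest p were named, and the 5 genes most correlated with Trp53 and Cdkn1a over at least 20 arrays. Members, lists, tests and the handling of dimmed rows were chosen with earlier results of these data known. Alternatives covered missing values, background, normalization, filters, probe choice, weights, slides, sessions and each array left out. Per-tumor histology and latency were not used here. The small number of arrays limits the precision, beside the missing rows and the slides and sessions described above.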

Additional observations from a re-analysis of the deposited data

Results flagged for a closer look

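In groups of 4 to 10 tumors, a tumor far from the rest of its group for a member was found in 2 of 38 checks, and chance flags about 1 in 20. Among the LFD-HFD tumors, MSU_59a was at 0.0680 for Apaf1, against -0.21 to -0.16 in the other 3, and MSU_24 was at 0.94 for Trp53inp1, against 0.22 to 0.30 in the others. Bbc3 was below the mean of late tumors of the same diet in every early HFD tumor, by 0.53 on average. It was above that mean in every early HFD-LFD tumor, by 0.19. The difference between these changes was -0.72 (SE 0.45, adjusted p = 0.702 by limma). In session 1, which held all early HFD tumors, Bbc3 was at a mean of -0.63 in early and -0.59 in late tumors. All early HFD-LFD tumors were in session 2, so diet and session cannot be told apart between these early tumors.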

How the results depend on the processing

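The member differences were recomputed under 22 processing settings and with each array left out. Of 4300 values, 4209 kept their direction and side of the threshold, 18 lost a call, 65 gained one and 8 turned. Most values had no call to lose, and the gains include those from unadjusted p. All 18 losses fell on Trp53 within HFD and Gadd45a over all tumors. The former call stood under 17 of 18 processing alternatives and in 23 of 24 fits without an array. The latter stood under 9 of 20 and in 19 of 24. For the pathway genes named as called between early and late tumors, 585 values were recomputed in the same way. Of these, 492 kept the call, 93 lost it and 0 turned. Counts of members called follow. Early against late, 1 as reported, gave 0 with dimmed rows kept (imputed or not), the scanner log ratio, slide as a random block, session 2 alone and row bands centred; 2 with session as a block and without slides 6 and 7; and 3 with median centring, array weights and unadjusted p (0 to 2 with an array left out). Within HFD, 1 became 0 with slide as a block, 2 with median centring, unadjusted p and without slides 6 and 7, and 5 with array weights (0 to 2 with an array left out). The other comparisons had 0. Within HFD-LFD it became 1 with unadjusted p and array weights, and for the difference between diets 1 with unadjusted p. Early HFD against LFD gave 1 with normexp on all spots, median centring, session as a block, session 1 alone, without slides 6 and 7 and with row bands centred, and 2 with unadjusted p and array weights (0 to 1 with an array left out). Late HFD against LFD gave 3 with array weights. Early HFD-LFD against LFD-HFD gave 1 in the tumor channel, with the mean of probes and in session 2 alone, 2 with unadjusted p and 3 with array weights (0 to 1 with an array left out). Late HFD-LFD against LFD-HFD gave 2 with unadjusted p, and the late diets gave 2 with unadjusted p or session as a block and 5 with array weights (0 to 1 with an array left out).

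With dimmed rows kept, imputed or not, Gadd45a and Ccng1 in early HFD-LFD against LFD-HFD tumors turned from -0.73 to 0.12 and from -0.33 to 0.52, and Ccng1 in late HFD-LFD against LFD-HFD tumors from -0.65 to 0.23, the dimmed spots then counting as values. Mdm2 within HFD turned from -0.22 to 0.15 with median centring, and Trp53 in late HFD against LFD tumors from -0.36 to 0.0873 with array weights; the cause was not tested. Median centring moved the median of all genes up by 0.27 between early and late tumors, 0.31 within HFD and 0.30 within HFD-LFD. All genes called between early and late tumors numbered 3325 (1313 to 7178 over processing settings), within HFD 2446 (380 to 8521) and within HFD-LFD 149 (15 to 2201). Row bands centred, single probes and sessions within diets were chosen after seeing the data. No paired analysis was possible because the labels give the tumors no shared replicate numbers. Groups of 3 to 6 arrays limit what could be called.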

Other observations

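Markers of other cell types were compared between early and late tumors by the same limma fit, which called 15.9% of all genes. No T cell gene of 8 was called. Of these, 6 had an unadjusted p under 0.05, as did 32.1% of all genes. All 6 were lower in early tumors, among them Cd3e, a chain of the T cell receptor complex (-0.98, SE 0.34, adjusted p = 0.0559). The mean of the 8 genes was -0.61 in LFD, -0.65 in early HFD and -0.58 in early HFD-LFD tumors. It was 0.08 in late HFD, -0.26 in LFD-HFD and 0.82 ± 1.52 (SD, n = 3) in late HFD-LFD tumors. All 8 endothelial genes lay below 0 and 2 were called, the tight junction gene Cldn5 (-1.0, SE 0.32, adjusted p = 0.0361) and the adhesion gene Esam (-0.84, SE 0.26, adjusted p = 0.0349). Of 8 basal genes, Myh11, the smooth muscle myosin of myoepithelium, was called, at -2.80 (SE 0.70, adjusted p = 0.0120), while 3 of the 8 lay above 0 and the median was -0.36. Of 8 fibroblast genes 1 was called higher and 1 lower (median -0.14), and of 10 macrophage genes 1 was called higher (median -0.05). None was called among 4 B cell, 7 adipocyte and 8 skeletal muscle genes (medians -0.08, -0.73 and -0.30, with no gene at an unadjusted p under 0.05). These genes were picked after their values were seen. Their part in the differences of the p53 genes was not tested.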
